A study of Arabidopsis thaliana with 21 samples.

Results

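H2AK121ub-only start peaks are regions that carried monoubiquitinated histone H2A (the H2AK121ub mark) in wild-type (WT) seedlings, carried no H3K27me3 peak of WT, and contained the 5′ end of at least 1 annotated gene. They were taken from the WT peaks of replicate 1 that a WT peak of replicate 2 overlapped by at least 1 bp. Of these 20063 matched peaks, 12036 overlapped no H3K27me3 peak of the 2 WT libraries paired with atbmi1abc, and 1966 of the 12036 held a gene start. The start peaks were thus 9.80% of the matched peaks and 16.3% of the H2AK121ub-only peaks. They held the starts of 2147 genes, 1662 of them protein-coding, out of 33056 annotated nuclear genes. A single start lay in 1800 start peaks, a pair in 155, and 3 or 4 in the other 11.

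Chromatin came from pools of 150 whole seedlings of the Col-0 ecotype, 7 days after germination (DAG), and was sequenced after immunoprecipitation. H2AK121ub was measured in WT, in the atbmi1a/b/c triple mutant (atbmi1abc), in the clf28/swn7 double mutant (clfswn) and in an lhp1 mutant (allele tfl2-2), with 2 replicates each. H3K27me3 was measured in WT, atbmi1abc and clfswn. The labels list 6 WT samples for H2AK121ub, but their peaks and reads did not differ from 1 mutant's table to the next. They therefore count as 2 libraries, and the 3 comparisons share them. Whole seedlings mix many cell types, so fewer cells with the mark and less mark per cell cannot be told apart. Reads from chromatin do not show which alleles a library carries, and the genotypes rest on the labels.

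H2AK121ub is laid down by Polycomb repressive complex 1 (PRC1), in which the AtBMI1 proteins work with RING1 proteins as the E3 ligase. H3K27me3 is laid down by PRC2, whose methyltransferases in seedlings are CURLY LEAF (CLF) and SWINGER (SWN). LHP1 is a chromodomain protein that binds H3K27me3. The first nucleosomes after a gene start are where many histone marks of transcription lie, and the comparison of the 3 mutants asks how far the ubiquitin mark there depends on each of these proteins.

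The bases just before the start are shown for genes that the results turn on. They are, among start peaks with a single, protein-coding start and a gene symbol, those with the greatest fall in atbmi1abc (ERD5, ILR2 and HBT), those with the greatest rise in clfswn (IRX15-L and CHR34) and those increased in lhp1 (CXE12 and APL1). Each stretch holds the 120 bases that end at the base before the annotated start, read 5′ to 3′ on the strand of the gene, from the TAIR10.1 genome of RefSeq. Capitals mark letters of 5 motifs that were searched on both strands: the GAGA repeat GAGAGA, the core CATGCA of the RY element, the TATA box TATAAA, the G-box CACGTG and the telobox AAACCCTA. None of them contains another.
ERD5 (chr3:12451557-12451676, minus strand): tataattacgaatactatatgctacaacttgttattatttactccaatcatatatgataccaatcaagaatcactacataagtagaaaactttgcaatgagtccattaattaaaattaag
ILR2 (chr3:6343179-6343298, minus strand): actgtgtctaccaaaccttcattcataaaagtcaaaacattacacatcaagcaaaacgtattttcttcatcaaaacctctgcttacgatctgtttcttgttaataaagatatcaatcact
HBT (chr2:8637301-8637420, minus strand): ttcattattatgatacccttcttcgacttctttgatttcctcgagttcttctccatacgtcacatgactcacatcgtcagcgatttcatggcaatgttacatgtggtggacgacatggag
IRX15-L (chr5:26818829-26818948, plus strand): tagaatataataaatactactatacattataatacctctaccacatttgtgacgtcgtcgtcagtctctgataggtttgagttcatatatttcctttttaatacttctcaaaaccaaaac
CHR34 (chr2:9183038-9183157, minus strand): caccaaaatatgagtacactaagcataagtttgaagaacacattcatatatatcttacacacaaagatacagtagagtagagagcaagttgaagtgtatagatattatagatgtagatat
CXE12 (chr3:18038235-18038354, minus strand): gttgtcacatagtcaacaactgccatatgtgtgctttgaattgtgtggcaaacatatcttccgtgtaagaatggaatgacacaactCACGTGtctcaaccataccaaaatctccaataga
APL1 (chr5:6466832-6466951, minus strand): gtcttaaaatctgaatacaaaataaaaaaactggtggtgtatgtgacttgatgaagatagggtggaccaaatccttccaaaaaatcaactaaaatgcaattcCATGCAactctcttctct
CXE12 held a G-box and APL1 an RY core, and none of the other 5 stretches held any of the motifs. The GC content ran from 25% before ERD5 to 42.5% before HBT. All 120 bases lay inside the peak for HBT and APL1, whereas for CXE12 the last 20 did.

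The start peaks lay mostly downstream of the start they contained. The start cut a start peak so that a median of 11.7% of its length lay upstream (quartiles 4.32% and 31.3%), which is 83.0 bp upstream and 568.0 bp downstream. The centre of the peak was downstream of the start in 1659 of 1966 (84.4%), by a median of 235 bp over all. In 891 (45.3%) less than 10% of the peak was upstream, and in 67 more than 90% was. For the 2234 start peaks that also carried H3K27me3, the median upstream share was 13.9%. Start peaks were 235 to 3545 bp long with a median of 710.5 bp. That is longer than H2AK121ub-only peaks within genes (537.0 bp) or outside genes (443.0 bp) and shorter than the peaks over starts with H3K27me3 (934.0 bp), though a longer peak also has more chance to include a start.

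**Figure D1:**
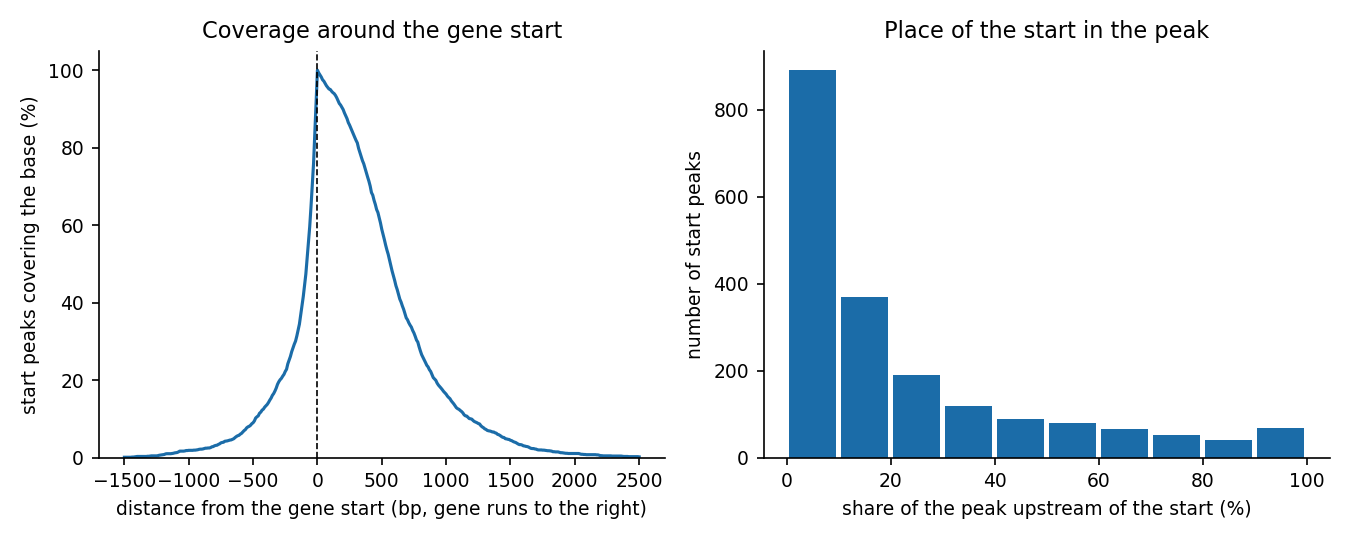
Left, percentage of the 1966 start peaks that cover each base (y axis) against the distance from the gene start in bp (x axis, transcription to the right). Right, number of start peaks (y axis) by the share of the peak upstream of the start in bins of 10% (x axis). Coverage falls steeply upstream, to 22.3% at 250 bp before the start, and slowly downstream, where it is still 85.8% at 250 bp and 59.0% at 500 bp.

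Among the 1605 start peaks with a protein-coding start, 1451 (90.4%) reached coding sequence, 1269 (79.1%) covered part of an annotated 5′ untranslated exon and 873 (54.4%) covered intron sequence. Over all 1966 start peaks, a median of 46.2% of the gene's length was covered, and in 326 of them the whole gene. The start also lay inside the peak of replicate 2 in 1690 (86.0%). It was the peak's sole start and within 10 bp of a limit in 162, and 16 shared their peak of replicate 2 with another start peak. The absence of H3K27me3 also depends on the libraries used: 251 start peaks (12.8%) overlapped an H3K27me3 peak of the other 2 WT libraries, those paired with clfswn.

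In WT the start peaks held 46 to 3611 reads, with medians of 330.0 in replicate 1 and 348.0 in replicate 2. Per length the median was 441 reads per kb, against 400.2 for H2AK121ub-only peaks within genes, 284 outside genes and 456 over starts with H3K27me3. The highest values were at AT2G47150 (2082 reads per kb, shared with the start of AT2G00970), a Rossmann-fold protein, and at PLP9 (2075), a patatin-like lipid hydrolase. They were followed by ERD5 (1819), the mitochondrial proline dehydrogenase that breaks down proline. The other 5 of the 8 highest were AT4G37240 (1814), AT3G63020 (1774), AT2G41990 (1740), AT3G12970 (1655) and RIC7 (1641), which encodes a partner of ROP GTPases.

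The authors rescaled the reads of each mutant by a line on the log2 scale (slopes 0.982 to 1.01 for H2AK121ub). At the median reads of a mutant library in WT peaks, the line multiplied them by 0.904 (lhp1 replicate 1) to 1.10 (atbmi1abc replicate 1). The levels given here thus differ from ratios of unscaled reads by about these factors. All 8 libraries held 2550675 to 8796984 reads in the matched peaks. The atbmi1abc libraries held 2550675 and 3963431, against 6955105 and 7641732 in WT. Library totals outside the peaks were not analysed here. From these reads a loss of the mark across the genome and a shallower or less efficient library cannot be told apart. The study reported lower H2AK121ub in this mutant by western blot and ChIP-qPCR. It also stated that the mutant's libraries gave less DNA and mapped less well. A measure that needs no depth is the share of these reads that fell in start peaks. WT had 12.7% and 12.1% (replicates 1 and 2), atbmi1abc had 11.7% and 11.2%, clfswn had 11.98% and 11.5%, and lhp1 had 11.99% and 11.7%. In all 6 mutant libraries it was lower than in the WT library of the same number, but the same 2 WT libraries serve all 6.

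In atbmi1abc, H2AK121ub at start peaks fell to medians of 38.8% and 53.2% of the WT level (replicates 1 and 2). The level is the mutant's rescaled reads over those of the WT library of the same number. On the log2 scale the medians averaged −1.14 ± 0.32 (SD, n = 2). A peak was called reduced when the adjusted p of edgeR's quasi-likelihood test was under 0.05 over all 20063 peaks and its level was under 80% of WT in each replicate, and increased when the level was over 120%. By this rule 1678 of 1966 start peaks (85.4%) were reduced and 1 was increased. Over all matched peaks 77.7% were reduced and 0.179% increased. The ratio was below 0 in both replicates at 1873 start peaks and above 0 in both at 8. Every class compared here was chosen by its peaks in WT, which by itself tilts the calls to the reduced side.

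The loss was graded. By the mean of the replicates, 73 start peaks (3.71%) kept under 20% of the WT level, 649 kept 20 to 40%, 825 kept 40 to 60%, 320 kept 60 to 80%, 94 kept 80 to 120% and 5 had more than that. Of all matched peaks, 3.09% were under 20%. A peak was still called in both atbmi1abc libraries over 1008 start peaks (51.3%), and in neither over 650 (33.1%). Among H2AK121ub-only peaks within genes 37.9% were called in both, and among peaks over starts with H3K27me3 69.7%.

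The size of this loss rests on the scaling. With reads scaled to equal totals over the matched peaks, 447 start peaks were reduced and 353 increased in atbmi1abc (22.7% and 18.0%, against 17% and 23.5% of all peaks). With TMM factors the counts were 506 and 293. Under equal totals the median log2 ratio of start peaks was −0.06 and −0.04 in the replicates, and that of all peaks 0.05 and 0.08. This scaling moves all peaks of a library alike, so it leaves the gap between classes as it was.

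Set against the other classes, start peaks had lower ratios in atbmi1abc than most. Their median log2 ratio in atbmi1abc was 0.13 and 0.16 below that of H2AK121ub-only peaks within genes in replicates 1 and 2 (−1.23 and −0.75 there). It was 0.11 and 0.11 below that of peaks over starts with H3K27me3 (−1.26 and −0.80). H2AK121ub-only peaks outside genes had lower medians still, −1.53 and −1.11. These differences had the same sign in both replicates, and since peaks are not independent they were not tested. The share reduced was 77.8% within genes, 88.1% outside genes and 79.0% over starts with H3K27me3. Read density differed between the classes, and within each of 5 density classes of equal size, cut by WT reads per kb over all peaks, the start peaks were again lower than peaks within genes, by 0.07 to 0.22 in replicate 1 and 0.03 to 0.25 in replicate 2.

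**Figure D2:**
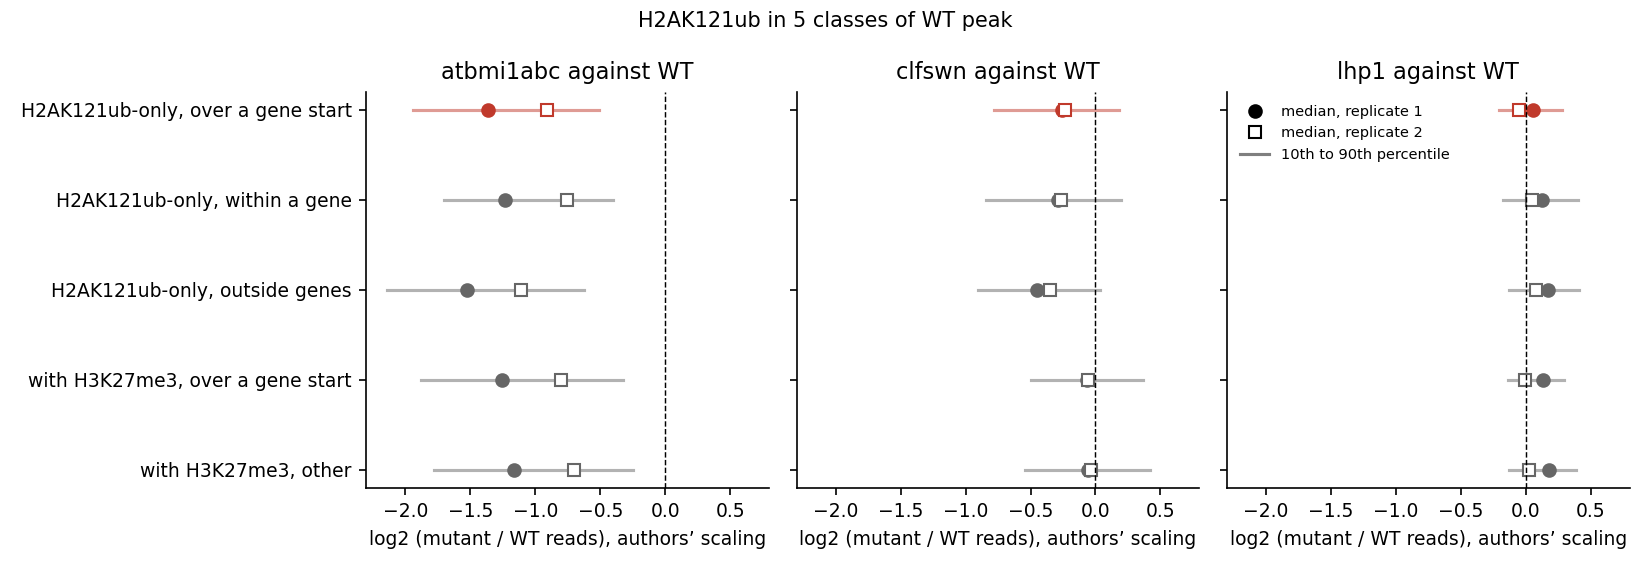
Log2 ratio of mutant to WT reads after the authors' rescaling (x axis) for the start peaks (red) and 4 other classes of WT peak (grey), in 1 panel per mutant. Circles and squares are class medians in replicates 1 and 2, and lines span the 10th to 90th percentile of peak means. In atbmi1abc the start peaks have medians of −1.37 and −0.91, in clfswn −0.26 and −0.24, and in lhp1 0.05 and −0.05.

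The genes with the greatest fall in atbmi1abc were named by rule from the 492 reduced start peaks with at least 50 reads in both WT libraries and a single, protein-coding start with a gene symbol. ERD5 (peak at chr3:12450321-12451656) had 2373 and 2470 reads in WT and 171 and 209 in atbmi1abc. The clfswn libraries had 973 and 1137 and the lhp1 libraries 2863 and 2698. In each replicate the atbmi1abc library was thus far below the other 3, with a log2 fold change of −3.56 ± 0.22 (SE, edgeR adjusted p = 4.1e-45). ILR2, named for resistance to an auxin conjugate, had 801 and 930 reads in WT and 84 and 108 in atbmi1abc (−3.07 ± 0.24). HBT, a CDC27 subunit of the anaphase-promoting complex, had 11 and 14 in atbmi1abc, while clfswn had 55 and 95 and lhp1 had 114 and 125 (−2.98 ± 0.36).

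Next came RLP53, a receptor-like protein, with 391 and 410 reads in WT and 30 and 80 in atbmi1abc. NRPD1B, the largest subunit of RNA polymerase V, which acts in RNA-directed DNA methylation, had 474 and 563 against 68 and 77. DRT100, a leucine-rich repeat protein, had 1388 and 1318 against 206 and 252. In all of these the atbmi1abc reads were the lowest of each replicate. SYTD, a synaptotagmin, IPP2, an isopentenyl diphosphate isomerase of isoprenoid synthesis, and RPL23AA, a protein of the large ribosomal subunit, followed with log2 fold changes of −2.41, −2.37 and −2.36. The 3 others of the 12 named were A/N-InvB, a neutral invertase that splits sucrose (−2.41 ± 0.23), SPT, a basic helix-loop-helix factor of carpel growth (−2.36 ± 0.22), and GER1, a germin-like protein (−2.31 ± 0.22). SPT had 1072 and 1134 reads in WT and 173 and 226 in atbmi1abc. GER1 had 1108 and 979 against 164 and 224.

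Of the 12 named genes 9 lay on chromosomes 2, 3 and 5, which hold 1150 of the 1966 start peaks (58.5%), a difference that was not tested. In atbmi1abc 23 start peaks were below 12.5% of WT in both replicates, 12 of them on chromosome 3, 10 on chromosome 5, 1 on chromosome 2 and none on chromosomes 1 and 4. Of all matched peaks 175 were below this limit, 2 of them on chromosome 1, 22 on chromosome 2, 56 on chromosome 3, none on chromosome 4 and 95 on chromosome 5. Neither clfswn nor lhp1 had any such peak. AT3G60960 had 1537 and 1682 reads in WT and 2 and 5 in atbmi1abc, while clfswn had 1291 and 1317 and lhp1 had 1556 and 1462. AT5G27890 had 330 and 325 reads in WT and 1 and 0 in atbmi1abc. AT2G09490 and AT3G09555 had 0 reads in both atbmi1abc libraries. Against a floor of 3 reads per library, before scaling, they were at least 32.0-fold and at least 72.0-fold lower.

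At the 23 nearly empty start peaks the median level was 84.8% and 83.3% of WT in clfswn, and in lhp1 the levels ran from 59.5% to 159% and from 39.2% to 142%. Of the 12 named genes, ERD5 and ILR2 are among them. None of these 23 had H3K27me3 peaks of WT to compare, so the other mark was read at peaks outside the start peaks. Of 67 matched H2AK121ub peaks that were below the limit and overlapped H3K27me3 peaks of WT in both replicates, 32 (47.8%) also had H3K27me3 below 12.5% of WT in both atbmi1abc replicates, against 1.01% of the 7305 others. The cause was not tested. On chromosomes 1 and 4 alone 672 of 816 start peaks (82.4%) were reduced in atbmi1abc, against 76.0% of all matched peaks there, with a median log2 ratio of −1.06.

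**Figure D3:**
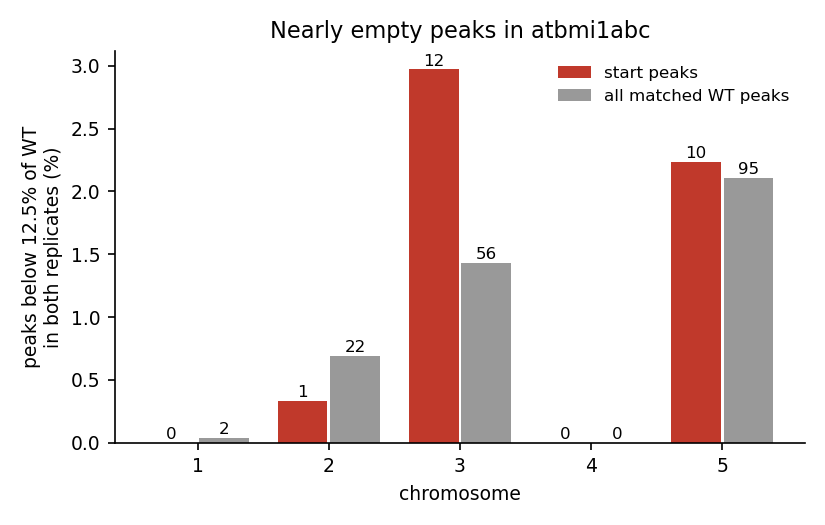
Percentage of peaks below 12.5% of WT in both atbmi1abc replicates (y axis) by chromosome (x axis), for start peaks (red) and all matched WT peaks (grey), with the number of peaks above each bar. Start peaks of this kind number 12 on chromosome 3 and 10 on chromosome 5, and 0 on chromosomes 1 and 4.

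Genes of chromosomes 1 and 4 were listed after this pattern was seen, under the same limits, so deeper falls at genes without a symbol, such as AT1G20480 (−2.77 ± 0.22), stay outside the list. After A/N-InvB, SPT and GER1 came APS3, an ATP sulfurylase of sulfate assimilation, with 587 and 538 reads in WT and 95 and 136 in atbmi1abc (−2.19 ± 0.23). ALL1, an aldolase-like protein, had 975 and 1111 against 196 and 232 (−2.17 ± 0.22). COR413IM1, a cold-regulated protein of the chloroplast inner envelope, had 1455 and 1663 against 323 and 325 (−2.14 ± 0.21). PP2-B15, a phloem protein 2 with an F-box, and SUS3, a sucrose synthase, had log2 fold changes of −2.07 and −2.05. In each of these the atbmi1abc library had the fewest reads of either replicate.

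Some start peaks changed little in all 3 mutants under the authors' rescaling. The 4 with least change were named among those with at least 200 reads in both WT libraries and a single, protein-coding start with a symbol. They were HA4, a plasma membrane proton pump, MSL9, a mechanosensitive channel, PERK15, a receptor-like kinase, and CYP71B8, a cytochrome P450. No log2 ratio of these 4 exceeded 0.45 in size in any mutant or replicate. AT1G05930, which has no symbol, changed less, with log2 ratios from −0.12 to 0.23. PERK15 had 481 and 578 reads in WT and 329 and 544 in atbmi1abc, while clfswn had 502 and 565 and lhp1 had 635 and 492. The 1 start peak increased in atbmi1abc, at the CTP synthase gene AT2G34890, had 67 and 49 reads in WT and 77 and 92 in atbmi1abc (log2 fold change 0.64, adjusted p = 0.031). DESeq2, a fit on 4 libraries, and leaving out any Col-0 or clfswn library or atbmi1abc replicate 2 gave 0 increased start peaks in atbmi1abc.

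**Figure D4:**
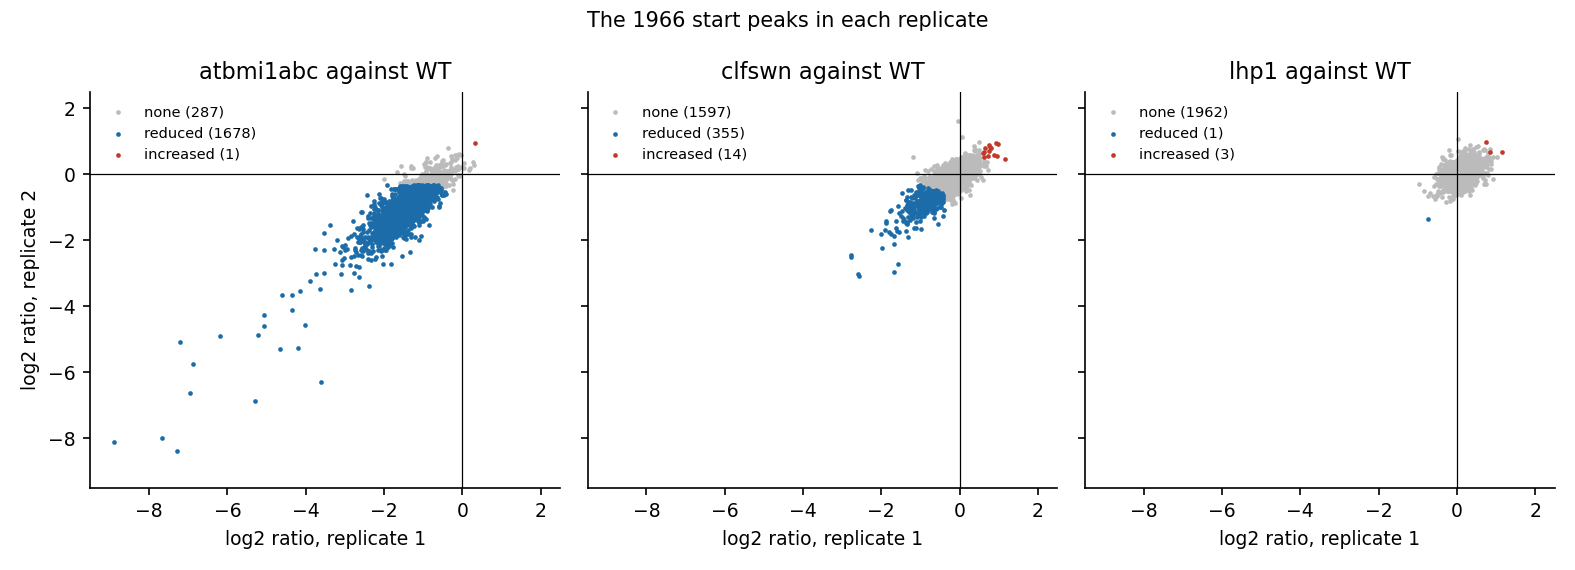
Log2 ratio of each of the 1966 start peaks in replicate 1 (x axis) and replicate 2 (y axis), in 1 panel per mutant, coloured by call. The reduced peaks number 1678 in atbmi1abc, 355 in clfswn and 1 in lhp1, and the points at the lower left of the first panel are the nearly empty peaks.

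In clfswn, which lacks CLF and SWN, H2AK121ub at start peaks was lower by less after the authors' rescaling. The median level was 83.8% and 85.0% of WT, the medians on the log2 scale averaged −0.25 ± 0.01 (SD, n = 2), and the median of all matched peaks was −0.20 and −0.17. By the same rule 355 start peaks (18.1%) were reduced and 14 (0.712%) increased, and the figures for all matched peaks were 15.1% and 2.16%. With equal totals 318 were reduced and 197 increased, and the median log2 ratio of start peaks was −0.06 and −0.05. The size of the fall thus rests on the scaling here too. The clfswn libraries held 5929171 and 6511706 reads in the matched peaks, against 6955105 and 7641732 in WT. The study reported higher H2AK121ub coverage in this mutant, from genes that also carried H3K27me3, which western blot did not clearly show. In a fit without the replicate block 304 start peaks were reduced and 11 increased. The count of reduced start peaks in clfswn rests on each library: it was 51 and 91 without Col-0 replicate 1 or 2, 62 and 57 without clfswn replicate 1 or 2, and 615 without either atbmi1abc library. The increased ones numbered 0 to 2 without a Col-0 or clfswn library and 61 without either atbmi1abc library. Start peaks with a lower level in both replicates numbered 1307, and 327 had a higher level in both.

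Start peaks sat below the peaks over starts with H3K27me3 in clfswn, by 0.19 and 0.18 on the log2 scale in replicates 1 and 2. The peaks with H3K27me3 had medians of −0.07 and −0.06, with 7.61% reduced and 3.54% increased. In all 5 density classes the start peaks were the lower, by 0.13 to 0.38 in replicate 1 and 0.15 to 0.21 in replicate 2. Against H2AK121ub-only peaks within genes (−0.29 and −0.27) the difference was 0.03 in both replicates, and its sign varied between density classes. The 251 start peaks that overlapped an H3K27me3 peak of the other WT libraries had medians of −0.09 and −0.11 in clfswn, with 7.97% reduced, and the remaining 1715 had −0.28 and −0.26, with 19.5% reduced. The level in clfswn relative to WT was thus higher where H3K27me3 of WT overlapped, a difference that was not tested.

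Among the start peaks open to naming (a single, protein-coding start with a symbol), the deepest fall in clfswn was at PyrD, a deaminase of riboflavin synthesis. Its peak (chr4:11211202-11211512) held 127 and 172 reads in WT, 17 and 30 in clfswn, 80 and 106 in atbmi1abc and 140 and 133 in lhp1. In each replicate the clfswn library was the lowest there, with a log2 fold change of −2.62 ± 0.31 (edgeR adjusted p = 8.5e-14), whereas in atbmi1abc it was −0.58 ± 0.26. UGT73C1, a glucosyltransferase that acts on cytokinins, had 355 and 303 reads in WT and 100 and 135 in clfswn (−1.46 ± 0.24). SIP2, a glycosidase of the raffinose pathway, had 875 and 673 against 252 and 307 (−1.44 ± 0.22). SPL3, a target of miR156 that promotes the floral transition, had 547 and 530 against 194 and 192 (−1.44 ± 0.22).

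The other 4 were a RING-type ubiquitin ligase (AT4G19700, listed as RING), the subtilase SBT3.3, A/N-InvB and the cytochrome P450 CYP71B36, with log2 fold changes of −1.43, −1.40, −1.40 and −1.31. The RING peak had 2454 and 2688 reads in WT, 941 and 921 in clfswn and 554 and 595 in atbmi1abc. In both replicates atbmi1abc was below clfswn at SPL3, A/N-InvB and RING, and above it at PyrD, UGT73C1 and SBT3.3. At SIP2 and CYP71B36 the order differed between the replicates. Of the 355 start peaks reduced in clfswn, 343 were also reduced in atbmi1abc, where 85.4% of all start peaks were. These comparisons share their WT libraries.

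Start peaks with more H2AK121ub in clfswn were few. IRX15-L, which acts in xylan synthesis for the secondary cell wall, had (at chr5:26818893-26819879) 1189 and 1284 reads in WT and 2307 and 2346 in clfswn. In each replicate the clfswn library was the highest and the atbmi1abc library (343 and 577) the lowest, with a log2 fold change of 0.95 ± 0.19 in clfswn (adjusted p = 5e-05). CHR34, an SNF2-type chromatin remodeller, had 112 and 115 reads in WT and 209 and 217 in clfswn (0.95 ± 0.24). MYB305, a MYB factor, HSFA9, a heat shock factor of seeds, and ATBETAFRUCT4, a vacuolar invertase, had log2 fold changes of 0.81, 0.80 and 0.62. HSFA9 had 222 and 453 reads in WT, 375 and 767 in clfswn and 169 and 467 in atbmi1abc. Each replicate was counted within its own peak limits, so counts are compared here within a replicate. Of the 14 start peaks increased in clfswn, 9 were reduced in atbmi1abc, where 85.4% of all start peaks were.

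**Figure D5:**
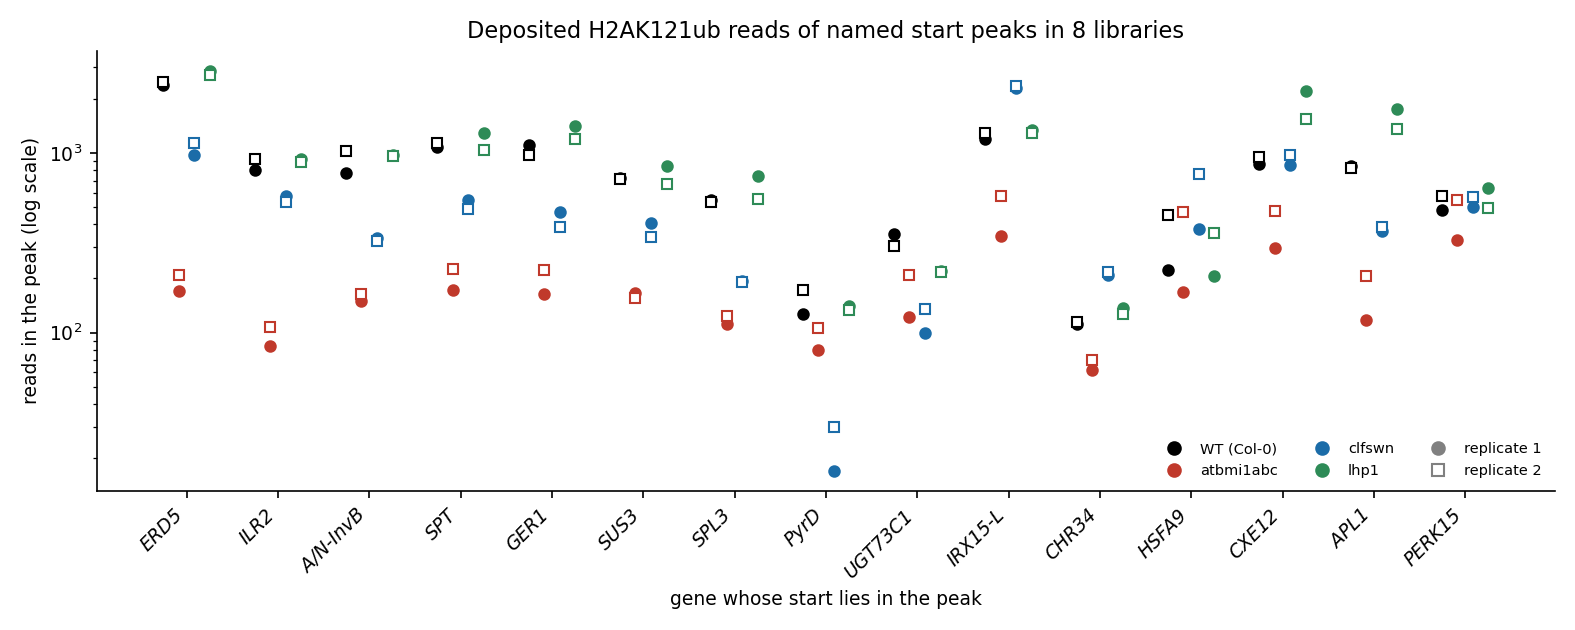
Deposited H2AK121ub reads (y axis, log scale) of 15 named start peaks (x axis) in the 8 libraries, with circles for replicate 1, squares for replicate 2 and a colour per genotype. At ERD5 the atbmi1abc libraries (171 and 209) lie far below the others, at PyrD the clfswn libraries (17 and 30) are the lowest, and at IRX15-L they are the highest (2307 and 2346).

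In lhp1 the level at start peaks stayed close to WT. The medians were 104% and 96.5% of WT, on the log2 scale 0.00 ± 0.08 on average (SD, n = 2), so the replicates differed in sign. By the rule, 1 start peak was reduced (0.0509%) and 3 were increased (0.153%), and over all matched peaks 0.0498% and 0.613% were called. At an unadjusted p under 0.05, 15 start peaks were lower and 73 higher, where all 20063 matched peaks had 95 lower and 1232 higher. DESeq2 called 0 start peaks reduced and 5 increased. The mean of the replicates lay between 80% and 120% of WT at 1688 start peaks (85.9%). Without Col-0 replicate 1 or 2, clfswn replicate 1 or 2, or lhp1 replicate 1, none was called in lhp1. Without lhp1 replicate 2 there was 1 increased, and without atbmi1abc replicate 1 or 2 the counts were 16 reduced and 74 or 76 increased.

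CXE12, a carboxylesterase (peak at chr3:18037102-18038254), had 868 and 944 reads in WT, 2204 and 1547 in lhp1, 859 and 979 in clfswn and 296 and 475 in atbmi1abc. The lhp1 library was the highest of each replicate, at 220% and 161% of WT (log2 fold change 0.93 ± 0.20, adjusted p = 0.0026). APL1, a large subunit of ADP-glucose pyrophosphorylase, the first step of starch synthesis, had 840 and 823 reads in WT, 1746 and 1351 in lhp1, 366 and 388 in clfswn and 118 and 207 in atbmi1abc. It was called in all 3 mutants, higher in lhp1 (0.78 ± 0.21, adjusted p = 0.036) and lower in clfswn (−1.10 ± 0.21) and atbmi1abc (−2.26 ± 0.23). The other 2 calls in lhp1 were at genes without a symbol. AT4G16983 rose from 687 and 568 reads to 1305 and 1153, and AT5G28410, whose peak was nearly empty in atbmi1abc, fell from 208 and 192 to 135 and 77. Start peaks were lower in lhp1 than the other matched peaks by 0.09 in both replicates.

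Start peaks differed among themselves with their read density and the type of gene. In atbmi1abc the share reduced rose from 74.1% of the 394 start peaks with the fewest WT reads per kb (190.2 to 327.7) to 95.9% of the 393 with the most (641.6 to 2082), and the medians moved from −1.24 and −0.79 to −1.53 and −1.13. Deeper peaks also give the test more power. Over the 1966 start peaks the Spearman correlation of the mean log2 ratio with WT reads per kb was −0.20 in atbmi1abc and −0.10 in clfswn. The 2 measures share the WT reads, so it is given as a description. Gene length showed a correlation of −0.00 in atbmi1abc.

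By gene type, the 243 start peaks with a long non-coding RNA start and no protein-coding start had lower medians in clfswn (−0.42 and −0.33, 26.3% reduced) than the 1605 with a protein-coding start (−0.23 and −0.22, 16.3% reduced). In atbmi1abc the medians were −1.46 and −1.02 against −1.35 and −0.89. The 20 start peaks over small nucleolar RNA starts had medians of −0.62 in both replicates of clfswn, with 8 reduced, and the 21 over microRNA starts −0.27 and −0.28. Where 2 starts shared a peak, 94 pairs faced each other, 40 ran the same way and 21 diverged. Of these 155 peaks 141 (91.0%) were reduced in atbmi1abc, against 85.4% of all start peaks. Peaks with 2 starts were also longer, with a median of 872.0 bp against 699.5 bp for those with 1. All 11 start peaks with 3 or 4 starts were reduced in atbmi1abc. In clfswn 7 of the 11 were reduced, against 18.1% of all start peaks. Reads over such peaks cannot be assigned to 1 of the genes.

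Levels were also set against the distance to H3K27me3. The 312 start peaks within 1000 bp of an H3K27me3 peak of WT had medians of −1.27 and −0.78 in atbmi1abc and −0.19 and −0.16 in clfswn. The 218 that lay 20000 bp or more away had −1.33 and −0.92, and −0.28 and −0.35. The share reduced in clfswn was 12.8% in the nearest group and 23.4% in the farthest. These groups were not tested against each other.

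Lists of genes with a common role were set against the start peaks, and their counts are read against the 85.6% of protein-coding start peaks that were reduced in atbmi1abc. At that share, a short list whose members were all reduced does not stand apart. Names without a match in the annotation were left out of the list sizes. Of all 27444 protein-coding genes 6.06% had their start in a start peak. Starch and sucrose genes had 5 of 39 (12.8%), and all 5 were reduced in atbmi1abc, where the list's median log2 ratio was −1.75 against −1.12 over all protein-coding start peaks. They were APL1, SUS3 (−2.05), the sucrose phosphate synthase SPS3F (−1.75), PGM, a plastid phosphoglucomutase (−1.62), and the starch synthase SS3 (−1.37). APL1 and SUS3 were also reduced in clfswn. Heat shock factors had 3 of 16, of which HSFA1E (−1.73) and HSFA7A (−0.68) were reduced in atbmi1abc and HSFA9 was not (−0.03). Light receptors and signalling genes had 3 of 34, all reduced: HYH, a bZIP partner of HY5 (−1.64), BZS1, a B-box factor (−1.22), and PIF7, a phytochrome-interacting factor (−0.82).

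The WRKY, MYB and NAC factors had 14 of 263 in start peaks, of which 12 were reduced in atbmi1abc, from WRKY18 (−1.81), a defence regulator, to MYB6 (−0.58). MYB110 had −0.40 and did not pass. Ribosomal proteins had 9 of 343 (2.62%), of which 6 were reduced, with RPL23AA lowest and AT3G12915 highest (−0.27, adjusted p = 0.28). Histone genes had 4 of 46, all reduced in atbmi1abc, and the histone gene AT5G02570 was increased in clfswn, from 244 and 252 reads to 535 and 338. The 26S proteasome had 2 of 58, the subunit gene EMB2107 (−1.31) and AT1G53780 (−1.19), and the latter was also reduced in clfswn. Auxin response factors and Aux/IAA genes had 2 of 54, ETT (−1.04) and MP (−0.72), both developmental response factors, and ETT was also reduced in clfswn.

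Lists with a single member had it reduced in atbmi1abc, as most start peaks were: the clock gene PRR5 (1 of 19 clock genes), RING1B of PRC1 itself (1 of 22 Polycomb genes, in which BMI1B and BMI1C found no match by name, −1.24 ± 0.22), ACT1 (1 of 24 actin and tubulin genes), EIL2 (1 of 16 ethylene genes) and CP12-3, a regulator of the Calvin cycle (1 of 19 carbon fixation genes). Glycolysis had 2 of 30, the hexokinase gene HXK3 (−1.09) and TIM, a triosephosphate isomerase (−0.97), both reduced in atbmi1abc. RING1B had 599 and 530 reads in WT and 174 and 265 in atbmi1abc. PRR5, a pseudo-response regulator, had 363 and 84 reads in WT within unlike limits and differed between replicates in other genotypes, with 44.2% and 145% of WT in clfswn and 103% and 211% in lhp1. No start peak held a gene of the lists of light harvesting and photosystem subunits (0 of 40), abscisic acid signalling (0 of 33), MAP kinases (0 of 27), SR splicing factors (0 of 19), brassinosteroid signalling (0 of 18) or cellulose synthases (0 of 9).

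The motifs that were searched also differed in frequency at start peaks. In a window from 250 bp before to 50 bp after the start, GAGAGA was found on either strand at 647 of 1662 protein-coding starts in start peaks (38.9%), against 29.2% of 27443 protein-coding promoters in all. The RY core CATGCA was at 15.6% against 9.72%, and the G-box CACGTG at 10.3% against 7.68%. TATAAA was at 48.8% against 52.1% and the telobox AAACCCTA at 3.91% against 6.22%. At the 2012 starts in peaks with H3K27me3 the shares were 32.9% (GAGAGA), 25.9% (CATGCA), 12% (CACGTG), 57.8% (TATAAA) and 8% (AAACCCTA). In atbmi1abc, start peaks with the RY core had medians of −1.48 and −1.08 against −1.33 and −0.88 without it, while with TATAAA they had −1.35 and −0.90 against −1.35 and −0.90. A match describes letters in the window and was not tested as a binding site.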

How the data were processed

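ChIP-seq reads were mapped by the authors to TAIR10 with Bowtie and peaks called per library with MACS2 (per the labels and the study's methods), keeping unique alignments. Each deposited table joins the peaks of 1 mutant and 1 WT library and gives read counts per peak for both, the authors' log2 ratio and mean log2 reads after rescaling the mutant, and a −log10 p-value of their comparison. The deposited log2 ratios and −log10 p-values were not used. The deposited mean log2 reads served to recover the rescaling line of each mutant library. The base from which the files count positions is not given in the sources used here, and positions are printed as deposited.

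Start peaks were found with the RefSeq TAIR10.1 annotation, whose nuclear chromosomes contain all peaks. The deposited counts of all 20063 matched peaks (8 libraries, at least 10 reads in at least 2) were fitted with edgeR 4.0.16 (R 4.3.3), with the authors' line as offset and the replicate number as a block, since the labels name the control of each mutant library. Log2 ratios per replicate used reads plus 1. P-values were adjusted by the Benjamini-Hochberg method over all 20063 peaks. The study's methods call the replicates biologically independent. The fit was tested on simulated data. DESeq2 1.42.0, other scalings, filters, definitions and limits, and each library left out were alternatives. The members and gene lists were chosen with earlier results of these data known. Named genes were the called start peaks with the largest fold changes (at least 50 reads in both WT libraries, 1 start, protein-coding, with a symbol), the 8 with most WT reads per kb, the 4 with least change, and the ends of each list. The 4 with least change had the same limits on start and symbol, with at least 200 reads in both WT libraries and no call needed. Genes that share a list's symbol by chance were removed.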

Additional observations from a re-analysis of the deposited data

Results flagged for a closer look

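In data outside the main comparison, 117 of the 1966 start peaks (5.95%) were overlapped by an H3K27me3 peak called in both atbmi1abc replicates, although none overlapped one in the WT libraries paired with them. The share was 4.55% of H2AK121ub-only peaks within genes and 10.7% of those outside genes, and in clfswn 30 start peaks (1.53%) were so overlapped. H2AK121ub fell less at these 117, with medians of −1.07 and −0.51 on the log2 scale and 72 reduced (61.5%), against −1.38 and −0.93 and 86.9% at the other 1849. The median log2 ratio of their H3K27me3 reads, atbmi1abc to WT, was 1.10 within the mutant's peak limits, a direction that follows from how the 117 were chosen. The ratios ran from 3.17 at AT2G12462 to −0.19 at AT4G12380, so not all of the 117 had more H3K27me3 reads. The mutant's peak can also reach far beyond the start peak. At AT5G19870 it spanned 10.87 kb in replicate 1, with 3988 reads in atbmi1abc and 4030 in WT. Among the highest ratios, RD28, an aquaporin, had 1350 and 515 H3K27me3 reads in atbmi1abc and 222 and 65 in WT in the mutant's peak limits. RTFL16 had 868 and 755 against 158 and 148. Which H3K27me3 column belongs to the mutant was read from the order of the names in each table's title.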

How the results depend on the processing

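Counts in atbmi1abc moved most with the scaling. With equal totals over the matched peaks, 447 start peaks were reduced and 353 increased in atbmi1abc (median log2 ratio −0.054), 318 and 197 in clfswn (−0.055), and 34 and 32 in lhp1 (−0.11). With TMM they were 506 and 293 (−0.11), 318 and 197 (−0.053), and 20 and 37 (−0.075). A change across all peaks and a difference in depth cannot be told apart with these files. Without the replicate block 1679 were reduced and 1 increased in atbmi1abc, 304 reduced and 11 increased in clfswn, and none was called in lhp1 (0 reduced, 0 increased). The block follows the control named for each library. With 4 libraries in each fit, 0 were increased in atbmi1abc, 619 reduced and 67 increased in clfswn, and 15 reduced and 75 increased in lhp1. DESeq2 gave 0 increased in atbmi1abc, and 0 reduced and 5 increased in lhp1. With at least 50 WT reads in both libraries, or limits of 67% and 150%, 0 were increased in atbmi1abc, and the latter left 9 increased in clfswn. For the 833 start peaks with a start at least 100 bp inside, 735 were reduced in atbmi1abc, and 162 reduced and 3 increased in clfswn (median −0.27). Without H3K27me3 in 4 WT libraries, 0 of 1715 were reduced in lhp1 and the clfswn median was −0.27, and with protein-coding starts alone it was −0.22. On chromosomes 1 and 4, an alternative chosen after seeing the data, 672 of 816 were reduced and 0 increased in atbmi1abc, 137 reduced and 3 increased in clfswn (median −0.21), and 0 reduced and 1 increased in lhp1. Leaving out each library in turn, where the lone sample of a group is assumed to vary like the others, gave 1407 to 1908 reduced and 0 to 16 increased in atbmi1abc, 51 to 615 and 0 to 61 in clfswn, and 0 to 16 and 0 to 76 in lhp1. The count of increased start peaks was 16 without atbmi1abc replicate 1. The medians in atbmi1abc and clfswn were below 0 under each alternative that gives a median. With equal totals or TMM the median in lhp1 was below 0 as well, and with equal totals it was farther below than in atbmi1abc or clfswn. Alternatives that change the test or the limits alone give no median.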
